A study of Populus tremula x Populus alba with 14 samples.

Results

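Bark of woody stems has an outer and an inner side. On the outer side a sheet of dividing cells, the phellogen, produces phellem, the cork tissue whose suberised walls limit water loss and keep out microbes. On the inner side the vascular meristem produces secondary phloem, which carries sugars. As a stem thickens, its early epidermis and cortex are stretched and replaced by cork, so the tissues on the outer side of a thin stem and of a thicker stem need not be the same. The genes described here had more transcript in the outer than in the inner bark of young poplar stems, and no such excess on average in old stems. They numbered 153 of the 41335 genes in the count table.

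The libraries came from wild-type trees of 1 clone, INRA 717-1B4, a hybrid of Populus tremula x Populus alba much used in tree research. Old stems measured 6 to 8 mm in diameter and young stems 4 to 5.5 mm. Outer bark was labelled as phellem with phellogen, and inner bark as secondary phloem with vascular meristem. There were 4 libraries of old outer bark, 4 of old inner bark, 3 of young outer bark and 3 of young inner bark. Sample titles carry stem numbers, 1 to 4 for old stems and 1, 2 and 4 for young stems, and an outer and an inner library with the same number and age were taken to come from 1 stem. Total counts lay between 11944485 and 15980636 per library, and the libraries of old stem 1 and young stem 1 behaved differently from the others in ways given below. The title of the inner library of young stem 4 starts with 9 and that of its outer partner with 20, while the other partners carry consecutive numbers, so values without that stem are also given. The transcripts are from mixed tissue, and fewer cells of a type cannot be told apart from less RNA per cell. Gene names are not paired with the identifiers in the files used here, so the labelled tissues could not be checked against marker genes, no role is given to any member, and only a few identifiers are printed.

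Members were chosen by measured values. Levels were taken as CPM, the count divided by the library total times 1000000, and the layer ratio of a stem was log2((outer CPM + 1)/(inner CPM + 1)). A member had a ratio of at least 0.5, a 1.41-fold excess in outer bark, in all 3 young stems, a mean ratio below 0.2 over the 4 old stems, and a mean of at least 5 CPM in young outer bark. Of the 2110 genes that met the young conditions, 1957 had an old mean of 0.2 or more and only the remaining 153 were members, so most genes of young outer bark leaned to the outer side in old stems too. The upper limit of 300 genes in the rule was not reached. At each threshold, the 3 genes on either side of it were close together. The lowest young ratios among members were 0.50 and those of the nearest genes left out were also 0.50 after rounding (0.4961 to 0.4992). The highest old means among members were 0.1923 to 0.1948, against 0.20 for the nearest genes left out. The lowest young outer levels among members were 5.42 to 5.81 CPM, and the nearest genes left out had 4.73 to 4.98 CPM. Since the ratio of the layers chose the members, ratios and layer differences are given below as descriptions with no test.

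Over the members, the median of the mean ratios was 0.01 in old stems and 0.86 in young stems. A ratio of 0.86 corresponds to 1.81-fold more transcript in young outer than in young inner bark, on the scale with 1 CPM added. The young means reached from 0.55 to 2.17, that is from 1.46-fold to 4.5002-fold. A mean young ratio of at least 1 was found in 46 members, and another 46 lay below 0.75. In the old stems the medians over members were -0.10, -0.05, 0.13 and 0.01 in stems 1, 2, 3 and 4. In the young stems they were 0.62, 1.02 and 0.90 in stems 1, 2 and 4. Old stem 3 thus leaned most to the outer side among old stems, and young stem 1 least among young stems. Young stem 1 held the smallest of the 3 young ratios in 126 of the 153 members. The layers of that stem differed less over genes in general: the standard deviation of the ratio over the 19956 genes with at least 5 CPM in young outer bark was 0.49 in young stem 1, against 0.73 and 0.65 in young stems 2 and 4. Among the young stems, stem 1 was therefore the strictest condition. Through this stem alone 333 genes missed the rule, against 29 through stem 2 and 50 through stem 4. The old condition removed more, 1957 of the 2110 genes that met the young conditions.

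**Figure D1:**
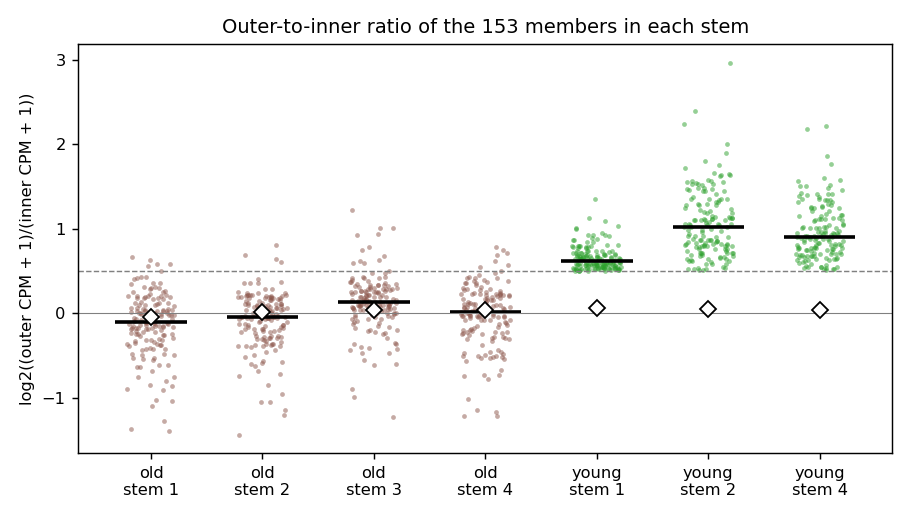
Each point is 1 of the 153 members; the vertical axis gives the log2 ratio of outer to inner CPM (each with 1 added) and the columns are the 4 old and 3 young stems. Black bars are medians over members, white diamonds are medians over the 19956 genes with at least 5 CPM in young outer bark, and the dashed line is the 0.5 that each young stem had to reach. Members spread around 0 in old stems, and in young stem 1 they crowd just above the dashed line.

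The absence of an outer excess in old stems took several forms. In old stems 121 members had ratios of both signs, 14 were above 0 in all 4 stems and 18 were below 0 in all 4. The ratio stayed within 0.2 of 0 in every old stem for 6 members. A mean old ratio of -0.5 or lower, so that the inner side was the higher one, was found in 9 members, down to a mean of -0.85, and 1 member was at -0.5 or lower in all 4 old stems. A single old stem reached 0.5 or more in 25 members, most often stem 3 (11 members) or stem 4 (8 members), and 2 more members reached it in 2 or 3 old stems. Among all genes at the same level in young outer bark, 9.95%, 16.3%, 16.3% and 17.1% reached it in old stems 1 to 4. Every old ratio lay below every young ratio in 140 of the 153 members, which the rule largely fixed, since it bounded each young ratio and the old mean. Few members were scarce in old bark. The mean was at least 5 CPM in both old layers for 141 members, whose median ratios were -0.00283 in old and 0.85 in young stems. A mean below 1 CPM in both old layers was found in 3 members (1.96%), against 0.381% of all genes at the same level in young outer bark. Adding 1 CPM flattens ratios at such levels, and each of the 3 had the higher mean in old outer bark.

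Whether the pattern holds in a stem that had no part in the choice was examined by applying the rule to the other 6 stems and reading the ratio in the stem left out. Chosen without young stem 2, 153 of 185 genes (82.7%) had a ratio of at least 0.5 in that stem, against 19.3% of all genes at the same level in young outer bark. Chosen without young stem 4, 155 of 207 genes (74.9%) reached it there, against 18.0% of all genes. Chosen without young stem 1, 151 of 487 genes (31.0%) reached it in that stem, against 13.0% of all genes, although 445 of the 487 had a ratio above 0. The medians in the stem left out were 0.87 for stem 2, 0.77 for stem 4 and 0.39 for stem 1. The outer excess thus recurred in the left-out young stem for most genes with stems 2 and 4, and at a smaller size with stem 1.

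The old stems were treated in the same way. Without old stem 1, 7 of 132 genes (5.30%) had a ratio of at least 0.5 in it, against 9.95% of all genes at the same level. The counts were 20 of 162 genes (12.3%) for old stem 2, against 16.3%, and 30 of 170 genes (17.6%) for old stem 4, against 17.1%. For old stem 3 they were 52 of 208 genes (25.0%), against 16.3%, with a median ratio of 0.26. The share among the chosen genes was thus below that of all genes for old stems 1 and 2, close to it for old stem 4 and above it for old stem 3. A ratio below 0.2 was found in 75%, 66.7%, 42.3% and 56.5% of the chosen genes in left-out old stems 1 to 4. The shares of all genes were 77.2%, 69.0%, 68.4% and 66.9%. A low ratio in the left-out old stem was thus no more frequent in chosen genes than in all genes. No test was made of these differences. All genes are not a like set, since they were not chosen for an outer excess in young stems. Of the 2110 genes that met the young conditions, 1957 had an old mean of 0.2 or more. The chosen genes were not compared with those 2110 in the left-out old stems.

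**Figure D2:**
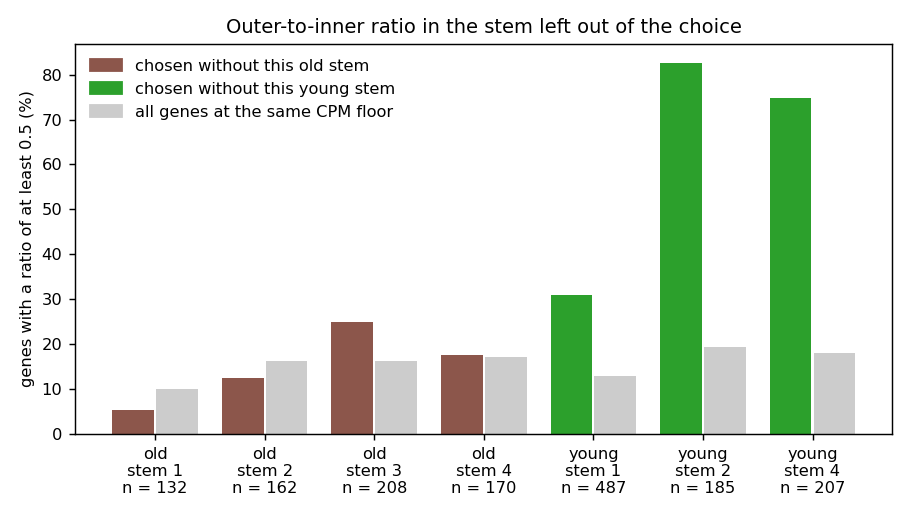
Bars give the percentage of genes with an outer-to-inner log2 ratio of at least 0.5 in the stem named below, for genes chosen by the rule from the other 6 stems (coloured; n is their number) and for all genes with the same minimum CPM in young outer bark (grey). The coloured bars reach 82.7% and 74.9% for young stems 2 and 4 and 31.0% for young stem 1, and lie between 5.30% and 25.0% for the old stems.

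Members ranged widely in abundance. The mean level in young outer bark had a median of 25.6 CPM over the 153 members, with quartiles of 14.5 and 63.2 CPM. It was below 10 CPM in 26 members and above 100 CPM in another 26. A single member, Potri.004G015300, stood far above the rest at 6863 CPM, while the next reached 600.3 CPM. In the young libraries every member had at least 4 counts, and each old library except old outer 3 had 1 member without a count.

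The median CPM over members was 19.1, 26.9, 32.3 and 29.4 in the outer bark of old stems 1 to 4 and 19.8, 30.7, 28.5 and 27.9 in their inner bark. It was 26.2, 24.5 and 26.1 in the outer bark of young stems 1, 2 and 4 and 15.7, 12.2 and 12.9 in their inner bark. The 3 young inner libraries were the lowest of the 14, and the young outer libraries lay within the range of the old libraries of both layers. The rule used the young values of both layers, so these levels are a description. Of all counts, members made up 2.02% ± 0.228 in the old outer and 2.18% ± 0.204 in the old inner libraries (SD, n = 4 each). Their share was 1.66% ± 0.331 in the young outer and 0.832% ± 0.2001 in the young inner libraries (SD, n = 3 each). Without Potri.004G015300 the shares were 1.68% ± 0.195 and 1.90% ± 0.237 in the old outer and old inner libraries, and 0.969% ± 0.117 and 0.531% ± 0.116 in the young outer and young inner ones. Each young outer library was then at 1.06% or less and each old library at 1.44% or more. These shares still held Potri.013G100800, which had 10648 CPM in old stem 1 with the layers summed, far more than in any other stem. The order of the ages was not examined without that gene, so it is not shown for the members as a group.

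**Figure D3:**
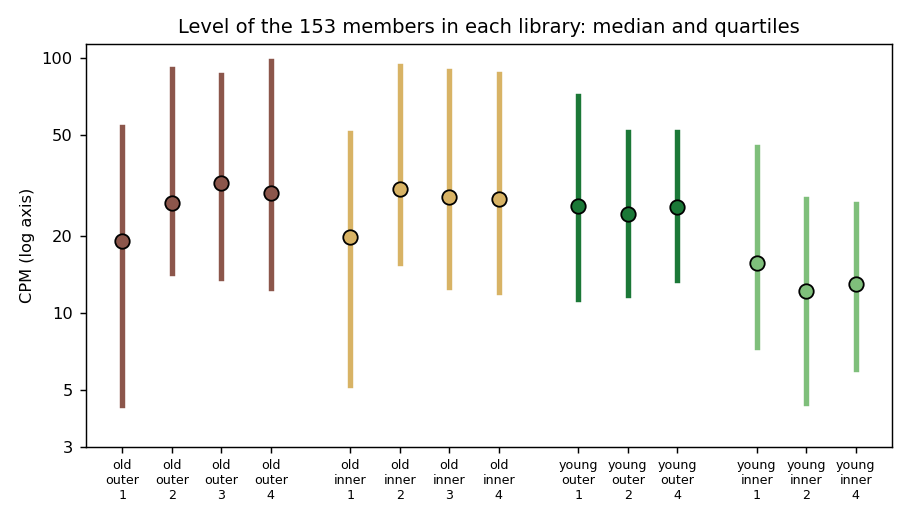
Points are the median CPM over the 153 members in each of the 14 libraries and bars run between the quartiles, on a log axis. The 3 young inner libraries have the lowest medians (12.2 to 15.7), and the libraries of old stem 1 have the lowest medians (19.1 and 19.8) among old stems.

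For each member the old level, averaged over both layers as log2(CPM + 1), was placed against the young levels. It lay above young outer bark in 79 members, between young inner and young outer bark in 48, and below young inner bark in 26. Of the 48 in between, 29 were nearer to young outer and 19 nearer to young inner bark. Comparing ages within a layer, outer bark had a median difference of 0.03 (old minus young, log2(CPM + 1)) over members and inner bark one of 0.96. Inner bark was higher in old stems in 129 members and outer bark in 78. With the sign of the difference ignored, it was larger in inner than in outer bark in 108 members. Among all genes with at least 5 CPM in young outer bark the medians were -0.07 in outer and -0.01 in inner bark. That inner bark gains on outer bark with age is fixed by the rule, while the position of both on the age axis is not. Every young inner library lay below all other 11 libraries in 30 members, which 4.25% of genes at the same level showed. Every young outer library lay above all other 11 in 7 members, which 1.22% of those genes showed. The rule itself favours both patterns, since it asked for outer above inner bark in each young stem. Every young outer library lay above every young inner one in 75 members, against 14.1% of those genes. Both counts are therefore only a description.

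The comparison of old with young stems was tested on counts summed over the outer and inner library of each stem. The sum was not a condition of the rule. The ratio and the minimum level in young outer bark come from the same libraries, so the rule may bias the sum too. Summing makes the stem the unit, with 4 old against 3 young stems. All 153 members were among the 28521 genes tested with edgeR's quasi-likelihood test and Benjamini-Hochberg adjustment over all of them. Of the members, 31 (20.3%) were higher in old stems, against 7.56% of all genes tested, and 7 (4.58%) were higher in young stems, against 10.2% of all genes tested. Among the 19946 tested genes with at least 5 CPM in young outer bark the shares were 8.41% and 10.3%. The median log2 fold change (old over young) over members was 0.55, against 0.05 over all genes tested, and 112 of 153 members were above 0. A member that was not called is not thereby shown to have the same level at both ages. The stem values did not overlap between the ages for 45 members with old above young and 9 with old below young, while 19.2% and 18.8% of all genes tested did so, and 21.1% and 18.5% of those with at least 5 CPM in young outer bark. Members thus leaned towards old stems when the layers were summed. How much of this lean comes from the rule was not tested.

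The number of calls rested on single stems. No member was called without young stem 2 or without young stem 4 (0 in edgeR in either case, with 53 and 48 members at an unadjusted p below 0.05), and no gene of the whole table was called then. Without old stem 2 the counts were 9 members higher in old and 1 higher in young stems, and without old stem 4 they were 17 and 2. Without old stem 3 they were 23 and 4, and without old stem 1 they were 52 and 8. Leaving out young stem 1 gave 29 and 9, against 31 and 7 with all stems. The median log2 fold change over members stayed between 0.47 and 0.63 in these fits. Fitting outer bark by itself gave 0.17 and inner bark by itself 1.07, and the rule biases both values.

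**Figure D4:**
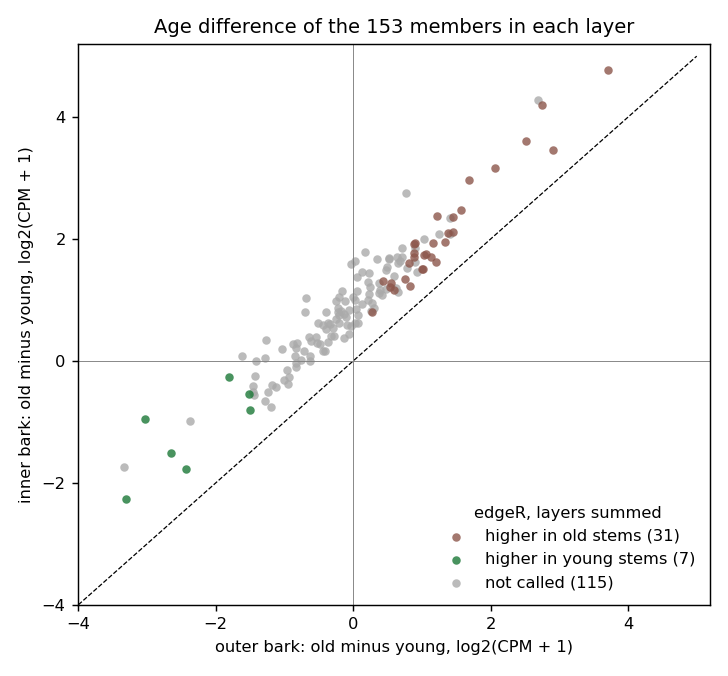
Each point is 1 of the 153 members; the horizontal axis gives the old minus young difference in outer bark and the vertical axis that in inner bark, both as means of log2(CPM + 1). Colours mark the 31 members higher in old stems, the 7 higher in young stems and the 115 not called in edgeR with the layers summed. All points lie above the dashed line of equal differences, which the rule fixes, and most lie above 0 on the vertical axis.

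The 31 members higher in old stems had median levels of 84.2 and 91.7 CPM in the outer and inner bark of old stems, against 41.7 and 23.1 CPM in the outer and inner bark of young stems. Their log2 fold changes (old over young) lay between 0.60 and 3.88 with a median of 1.49, or 2.82-fold. Every old inner library exceeded every young inner library in all 31, and every old outer library exceeded every young outer library in 24. The 31 were picked by a test on the sum of these same libraries, so both counts are only a description. By these medians both layers of old stems held more transcript than the outer bark of young stems. In 7 of them the fitted difference was 4-fold or larger. Potri.001G059500 had 150.05, 302.8, 230.5 and 236.0 CPM in old stems 1 to 4 with the layers summed, against 34.1, 3.67 and 9.07 CPM in young stems 1, 2 and 4. The ages did not overlap, and young stem 1 was the highest of the young stems. The log2 fold change, old over young, was 3.88 ± 0.79 (SE), with an adjusted p of 0.0233 in edgeR. By layer, young outer bark had 45.1, 4.64 and 12.5 CPM and young inner bark 30.6, 2.50 and 5.04 CPM in stems 1, 2 and 4. The log2 fold change was 5.18 without young stem 1. The call was lost without old stem 2 or 4 or young stem 2 or 4, with adjusted p up to 0.0937 over 16 alternatives.

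Potri.002G017200 had 43.2, 108.3, 69.4 and 26.1 CPM in old stems 1 to 4 with the layers summed, against 4.63, 5.97 and 6.45 CPM in young stems 1, 2 and 4. All old stems were above all young stems. The log2 fold change was 3.44 ± 0.52 (SE), with an adjusted p of 0.0140 in edgeR, and the call was lost without young stem 2 or 4 (adjusted p up to 0.0660 over 16 alternatives). In old stems its layer ratio was below 0 in each stem, from -0.58 to -0.11, while in young stems it was 1.02, 0.78 and 0.70 in stems 1, 2 and 4. Inner bark was thus the slightly higher layer in old stems and outer bark the higher one in young stems.

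The 7 members higher in young stems had median levels of 0.966 and 0.999 CPM in the outer and inner bark of old stems, against 11.4 and 3.49 CPM in the outer and inner bark of young stems. They included Potri.009G135300, singled out after its values were seen, which was abundant in old stems too, with 51.9 to 85.9 CPM with the layers summed, against 119 to 218 CPM in young stems. Every old outer library lay below every young outer library in all 7, and every old inner library below every young inner library in 4. These counts too only describe members picked by a test on the same libraries. Of the 7, 4 differed by 4-fold or more. Potri.019G031200 had no count in 7 of the 8 old libraries and 3 counts in old outer 3. It had 6.63, 5.14 and 22.4 CPM in young outer bark, against 4.25, 1.21 and 8.43 CPM in young inner bark, of stems 1, 2 and 4. Pooled over libraries, the old to young ratio was 0.00330, with an exact 95% interval of 0.000678 to 0.00967 that covers counting error only. The edgeR adjusted p was 0.0138, and without young stem 2 or 4 it was 0.0627 and 0.0629. Its old ratio of outer to inner bark says little at such counts.

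Potri.003G076900 had 0.119, 0.183, 0.671 and 0.622 CPM in old stems 1 to 4 with the layers summed, against 3.59, 5.86 and 6.04 CPM in young stems 1, 2 and 4. The groups did not overlap. The log2 fold change was -3.67 ± 0.60 (SE), with an adjusted p of 0.0160 in edgeR, and the call was lost without old stem 2 or young stem 2 or 4 (adjusted p up to 0.0662 over 16 alternatives). In young stems its layer ratios were 0.58, 0.91 and 0.88 in stems 1, 2 and 4. The edgeR fit of group means, which does not add 1 CPM, gave log2 fold changes (outer over inner) of 0.54 in old and 0.94 in young stems. Its low old ratio thus depends in part on the added 1 CPM.

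The members with the largest mean young ratios were Potri.016G069400 and Potri.017G007600. Potri.016G069400 had 4.24, 24.7 and 23.0 CPM in young outer bark, against 1.04, 2.29 and 4.29 CPM in young inner bark of stems 1, 2 and 4, giving ratios of 1.36, 2.97 and 2.18. In old stems it had 0.125, 0.427, 1.93 and 1.27 CPM in outer and 1.92, 0.0757, 0.458 and 0.837 CPM in inner bark of stems 1 to 4. Its old ratios were -1.37 in stem 1 and 0.41, 1.00 and 0.30 in stems 2, 3 and 4. The old mean of 0.09 therefore rests on stem 1 and on levels near 1 CPM. With the layers summed it was lower in old stems, at a log2 fold change of -3.50 ± 0.73 (SE) and an adjusted p of 0.0245 in edgeR. That call was lost without old stem 2 or 4, without young stem 2 or 4, in inner bark alone, and in limma voom with the stem as a random block (adjusted p = 0.188).

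Potri.017G007600 had 9.94, 10.1 and 8.56 CPM in young outer bark, against 5.29, 1.79 and 1.05 CPM in young inner bark of stems 1, 2 and 4. In old stems 2, 3 and 4 it had 10.1, 10.4 and 8.57 CPM in outer and 8.78, 8.47 and 7.79 CPM in inner bark. In old stem 1 it had 0.501 and 1.53 CPM in outer and inner bark. Leaving old stem 1 aside, all libraries but the young inner ones were thus within a narrow range, and the young inner ones were lower. With the layers summed the ages were not called different (log2 fold change 0.21 ± 0.63 SE, edgeR adjusted p = 0.839).

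The most abundant members were Potri.004G015300 and Potri.013G100800. Potri.004G015300 had 5923, 9521 and 5146 CPM in young outer bark, against 3760.2, 3266 and 2009 CPM in young inner bark of stems 1, 2 and 4. In old stems 2, 3 and 4 it had 4391, 4485 and 4132 CPM in outer and 3847, 3480 and 3162 CPM in inner bark, so that those old stems still leaned slightly outward, with ratios of 0.19, 0.37 and 0.39. Old stem 1 had 448 CPM in outer and 845 CPM in inner bark, a ratio of -0.91 that brought the old mean to 0.01. Without old stem 1 this gene would not meet the old condition. The ages were not called different with the layers summed (log2 fold change -0.66 ± 0.60 SE, edgeR adjusted p = 0.459).

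Potri.013G100800 had 143, 1432 and 227 CPM in young outer bark, against 94.1, 656 and 122 CPM in young inner bark of stems 1, 2 and 4. In old bark it had 8050.4, 2082, 723 and 2381 CPM in outer and 10799.5, 3489, 1445 and 3984 CPM in inner bark of stems 1 to 4. Inner bark was the higher layer in every old stem, with ratios from -0.997 to -0.42, and outer bark in every young stem, with ratios of 0.60, 1.12 and 0.89. The level with the layers summed overlapped between the ages (log2 fold change 3.27 ± 1.15 SE, edgeR adjusted p = 0.0878). DESeq2 gave it an adjusted p of 0.00317. The log2 fold change was 2.34 without old stem 1 and 4.94 without young stem 2.

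**Figure D5:**
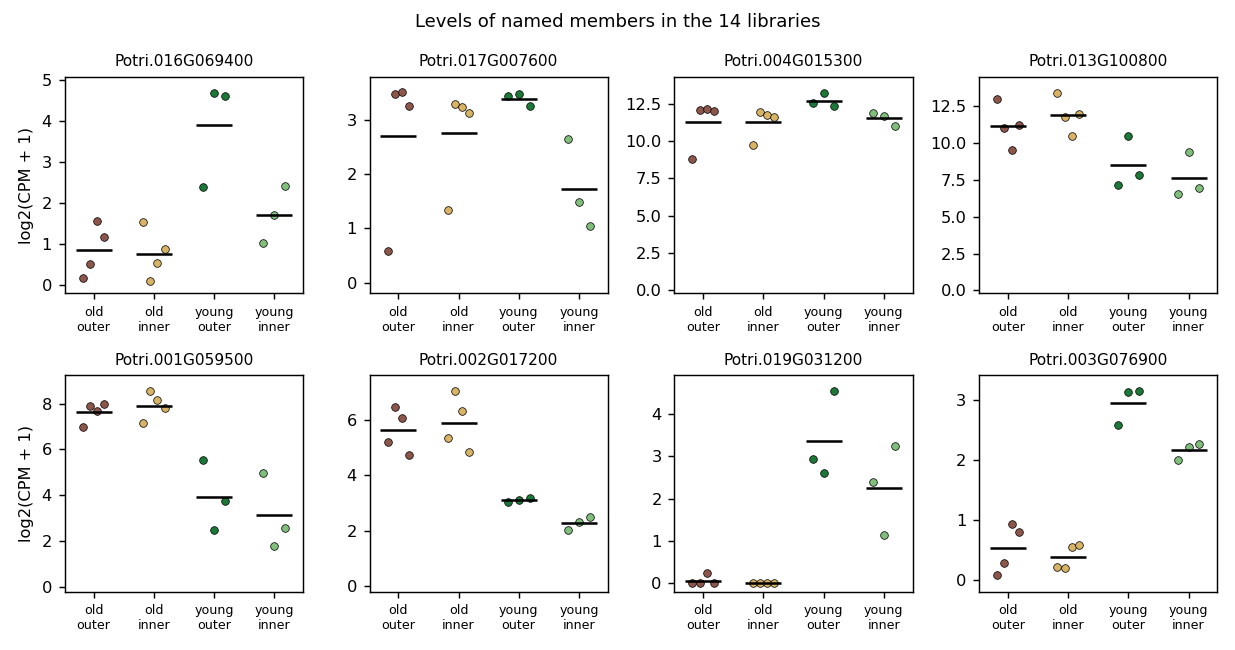
Points are the libraries of each group and bars the group means, as log2(CPM + 1), for the 8 members named in the text. The lower row shows the members higher in old stems (001G059500 and 002G017200, by the second part of the identifier) and in young stems (019G031200 and 003G076900). In the upper row, old stem 1 is the low old point of 017G007600 and 004G015300.

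Old stem 1 stood apart from the other old stems in many members. With the layers summed, it lay at least 1 unit of log2(CPM + 1) below each of the other old stems in 49 members (32.03%), which 12.3% of genes at the same level did, and above each of them in 6 members, as 3.99% of those genes did. With TMM-scaled values, an alternative added after seeing the data, the first count was 39 members (25.5%), against 9.46% of genes. No more than 1 member set any other old stem apart in this way in either direction, and between 0.0501% and 0.702% of genes did. Young stem 1 lay at least 1 unit above both other young stems in 19 members, which 2.88% of genes at that level did, and below them in 9, which 5.71% of genes did. Young stem 2 lay below both other young stems in 8 members (5.23%), against 0.932% of genes, and above them in 4, against 0.892%. Young stem 4 did so in 3 members in each direction, against 0.316% of genes below and 0.877% above. Both libraries of old stem 1 also had the lowest TMM factors, 0.837 in outer and 0.870 in inner bark, where the other 12 libraries had 0.962 to 1.12. The part of these stems in the choice of members was not tested beyond the rule without each of them.

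A pair of other gene sets chosen by the same kind of rule were placed beside the members. An outer ratio of at least 0.5 in all 7 stems, with at least 5 CPM in young outer bark, was found in 1113 genes. Of these, 206 (18.5%) were higher in old and 24 (2.16%) higher in young stems with the layers summed, with a median log2 fold change of 0.40. The mirror rule, a ratio of at least 0.5 in all 4 old stems, a mean young ratio below 0.2 and at least 5 CPM in old outer bark, found 51 genes. Of these, 4 (7.84%) were higher in old and 10 (19.6%) higher in young stems, with a median of -0.25. The lean of the members towards old stems was thus also present in genes that were outer in every stem, and it was not tested as a property of the members.

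The identifiers carry a chromosome field, which placed 149 members on numbered chromosomes and 4 elsewhere. Chromosome 4 held 17 members (11.1%) and chromosome 9 held 14 (9.15%), where 5.56% and 4.70% of genes with at least 5 CPM in young outer bark were found. Chromosome 11 held 1 member and chromosome 3 held 4, with 3.47% and 5.67% of those genes. No pair of members was adjacent in the order of identifiers, and 4 pairs had 1 other gene between them. With neighbours up to 10 places apart, a window chosen after seeing the data, 25 members fell into 11 runs, and the longest run held 5 members of chromosome 13 within 22 identifiers. All 5 had their lowest old and their highest young value in stem 1, and with the layers summed their log2 fold changes (old over young) were 1.16 to 1.31, with edgeR adjusted p of 0.277 to 0.366. Whether these neighbours have similar sequences is not known here, nor how reads that fit more than 1 gene were counted. Such pairs and runs may therefore not be separate measurements. The number of runs among as many other genes was not worked out.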

How the data were processed

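RNA was sequenced from outer and inner bark of old and young hybrid poplar stems (14 libraries). The authors deposited whole-number raw counts for each gene and library, per the file headers. Tools named in the submitters' processing notes, without roles, include Trimmomatic, TopHat, HTSeq, DESeq and edgeR; a genome build is not named in the sources used here. Per the labels' protocols strand was not kept, so overlapping antisense genes cannot be told apart. The authors' deposited comparison tables were not used, since they cover the layer contrast that chose the members.

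Members, gene lists and tests were chosen with earlier results of these data known. The description lists for processes, families and markers of cork, epidermis, phloem, cambium and xylem could not be filled, because the symbol column repeats the identifier in 100% of rows. Named members were the largest young ratios, the highest young outer levels and the largest called age differences without overlap, limited to 2 each.

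Across 27673 genes, same-numbered outer and inner libraries deviated together from their group means (correlations of 0.60 to 0.82), and all 14 libraries correlated best with their own number, so stem numbers were taken to pair the layers. Labels do not state that each stem is a different tree, so p-values reflect the spread of these samples, which may be technical. Within groups, every pair of libraries differed by more than sampling noise.

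The age test used edgeR 4.0.16 under R 4.3.3 (filterByExpr, TMM, robust quasi-likelihood F test, threshold 0.05). Alternatives used DESeq2 1.42.0 and limma 3.58.1, other scalings, filters and left-out stems. Intervals cover counting error only.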

Additional observations from a re-analysis of the deposited data

Results flagged for a closer look

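Library measures of the members and CPM values of the 8 named members were searched for a library far from the other 3, separately in the outer and the inner bark of old stems. Such a library was found in 3 of 25 searches, which share libraries. Chance alone gives about 1 in 20. Potri.004G015300 was at 447.7 CPM in old outer 1, where the other old outer libraries had 4132 to 4485 CPM. Potri.017G007600 was at 1.53 CPM in old inner 1, where the other old inner libraries had 7.79 to 8.78 CPM. Potri.019G031200 was at 0.193 CPM in old outer 3, and the other 3 old outer libraries had no count. With no count in the others, any count would have been flagged, so the rate of 1 in 20 does not apply to this gene.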

How the results depend on the processing

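The number of members depended on the scaling: the rule gave 94 genes with TMM-scaled library sizes (88 of them among the 153) and 89 with RLE-scaled sizes (84 shared). It gave 2 genes with a young ratio of at least 1, 74 with an old mean below 0, and 132 to 487 when single stems were left out, the highest without young stem 1. Pseudocounts of 0.5 and 0.1 and a minimum of 1 CPM kept the number within 1.5 times. Members higher in old and in young stems numbered 48 and 11 in DESeq2, 64 and 14 with 14 libraries as 4 group means, 51 and 2 in inner bark alone, and 47 and 5 in limma voom with the stem as a replicate block (random effect). Leaving out single stems gave 0 to 52 higher in old and 0 to 9 higher in young stems. The median age difference of members was positive in every fit run, 0.17 in outer bark alone, 1.07 in inner bark alone and 0.47 to 0.63 without single stems. Potri.017G007600 turned to -0.32 in outer bark alone. Median layer ratios of members moved by less than the spread between stems in every alternative, the replicate block included (0.86 in young and -0.00195 in old stems), and without single stems lay between 0.77 and 0.96 in young and between -0.03 and 0.06 in old stems. The cause of these shifts was not tested. Depth limits the old ratios of the 3 members below 1 CPM in both old layers, and also of other members near that level. The 7 members higher in young stems had old medians of 0.966 CPM in outer and 0.999 CPM in inner bark.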
